A study of Mus musculus with 250 samples.

Results

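The genes described here are 30 subunits and regulators of the Polycomb repressive complexes, taken by symbol from a table of 27003 gene symbols, and all 30 had a row. The list goes by function and uses no measured value in its rule, though earlier results of these data were known when it was made: 18 belong to Polycomb repressive complex 1 (PRC1), 9 to Polycomb repressive complex 2 (PRC2) and 3 to the group of deubiquitinases that act on histone H2A. The table holds read counts of 250 single cells from mouse tail epidermis, made with Smart-Seq2, which reads along whole transcripts and marks no molecules.

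All cells came from Lrig1CreER/Rosa-TdTomato mice, in which a Cre driven by Lrig1 switches on a fluorescent label that the cell's descendants keep, and all were sorted as labelled cells with Sca1 on the surface to enrich for the upper hair follicle. There were 81 cells from the distal memory region, 85 from the wound bed and 84 from a control region without memory, all at 8 weeks, followed in the labels by an abbreviation that is not spelled out. Each region was sequenced in 2 batches, and each combination of region and batch had its own plate, so region and plate cannot be told apart within a batch. No animal is named, so a region is treated as 1 sample and regions could not be tested against each other. Intervals below are exact 95% intervals (Clopper-Pearson for shares of cells, Poisson for counts) and cover counting error only.

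PRC2 places methyl groups on lysine 27 of histone H3 through its catalytic subunit, Ezh2 or Ezh1, with Eed and Suz12 as core partners and Rbbp4 or Rbbp7 as histone-binding partners. PRC1 attaches ubiquitin to histone H2A (the mark H2AK119ub) through Ring1 or Rnf2, paired with 1 of the Pcgf proteins, and Bap1 with Asxl1, or Usp16, takes it off again. In skin, these complexes are known to restrain differentiation genes in epidermal progenitors, to repress Cdkn2a and to limit Merkel cell formation.

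Plate totals ranged from 1751116 to 10671470 reads, and reads per cell from 3857 to 3119120 (median 49298). In the distal memory plate of batch 1, 4 cells with over 500000 reads held 72.8% of all reads. In the control plate of batch 1, 18 of 28 cells were rich in reads of repeat-like predicted genes (over 5% of non-mitochondrial reads), against 0 to 6 cells in the other plates. Basal keratinocyte markers were present in 89.3% to 100% of the cells of each plate, and immune, fibroblast, endothelial, melanocyte and Merkel cell markers in at most 10.7%. At least 1 of 6 upper hair follicle markers was read in 75% and 83.7% of distal memory, 76.7% and 72.7% of wound bed and all and 94.6% of control cells (batch 1 and batch 2), and 1 of these markers, Lrig1 itself, had no read in the wound bed plate of batch 2. The summed level of 5 suprabasal markers was 18962 and 9188 CPM in distal memory, 30920 and 24515 CPM in the wound bed, and 14467 and 12625 CPM in control. Mitochondrial reads made up 41.8% of the distal memory plate of batch 1 and 23.5% to 31.2% of the others. The part of these differences between plates in the region comparisons below was not tested.

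Polycomb transcripts were sparse, and PRC2 was the class detected most often. Of the 30 genes, 14 had a read in at least 10% of the 250 cells, 4 in at least 25% and 7 in under 5%. By class, 8 of 9 PRC2 genes, 4 of 18 PRC1 genes and 2 of 3 deubiquitinase genes reached 10%. The median share over the 30 genes was 7.6% of cells, against 2.4% over all genes with a read, of which 27.5% reached 10%. Reads of 19 of the 30 genes were found in all 6 plates, and 25 of the 180 combinations of gene and plate had none. Where a plate had reads, 1 cell held more than 50% of them in 98 of 155 combinations, so that most plate sums of these genes rest on few cells.

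Rbbp7, a histone-binding subunit that PRC2 shares with other chromatin complexes (X:162760402-162779092, plus strand, a protein-coding gene in GENCODE M21 on GRCm38), was the most widely detected, in 120 cells (48%, interval 41.7% to 54.4%). Per kilobase of exon it also had the highest median level over plates, 80.3 CPM per kilobase (CPM, the read count scaled to library size with TMM factors). Ezh2, the catalytic subunit known for its high level in dividing cells (6:47530139-47595341, minus strand), came next on that scale with a median of 12.2 CPM per kilobase, but its plate values spanned 2.58 to 75.7. Ezh2 had reads in 67 cells (26.8%, interval 21.4% to 32.7%). The order below Rbbp7 is not firm, because the plate ranges of Ezh2, Rnf2 (median 10.6 CPM per kilobase), Suz12 (6.12) and Usp16 (5.67) overlap, while the lowest Rbbp7 plate, at 43.8, lay above every plate of those 4 genes except the highest of Ezh2. The highest plates of Pcgf6 (67.8) and Eed (44.5) also lay above it. Rbbp4 and Rbbp7 are close paralogs, and how reads matching both were assigned is not given in the sources used here.

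The 100 bases before the RefSeq start sites of Ezh2 and Rbbp7 (GRCm38.p6) are shown, since these are the genes whose detection differed most with the cycling markers described further on; capitals mark CG dinucleotides. Ezh2 lies at chr6:47595031-47595130 on the minus strand and Rbbp7 at chrX:162760272-162760371 on the plus strand.
Ezh2: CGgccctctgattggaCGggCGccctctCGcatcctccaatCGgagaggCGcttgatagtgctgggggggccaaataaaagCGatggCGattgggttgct
Rbbp7: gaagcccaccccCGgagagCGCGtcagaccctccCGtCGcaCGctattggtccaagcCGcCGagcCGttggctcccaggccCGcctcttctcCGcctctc
In the full windows of 300 bases (250 before and 50 after the start), Ezh2 had 31 CG dinucleotides and Rbbp7 38. Over 35 start windows of 26 of the 30 genes the median was 24 (range 2 to 50), against 7 over 32851 start windows of all genes. Windows with at least 20 CG made up 68.6% of those of the Polycomb genes and 26.5% of all. The letters GCGGGAA, the core of a motif of E2F factors, searched on both strands, were in 4 of the 35 windows (11.4%; those of Suz12, Phf19, Asxl1 and Pcgf5) and in 4.60% of all windows. They were not in the windows of Ezh2 or Rbbp7.

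**Figure D1:**
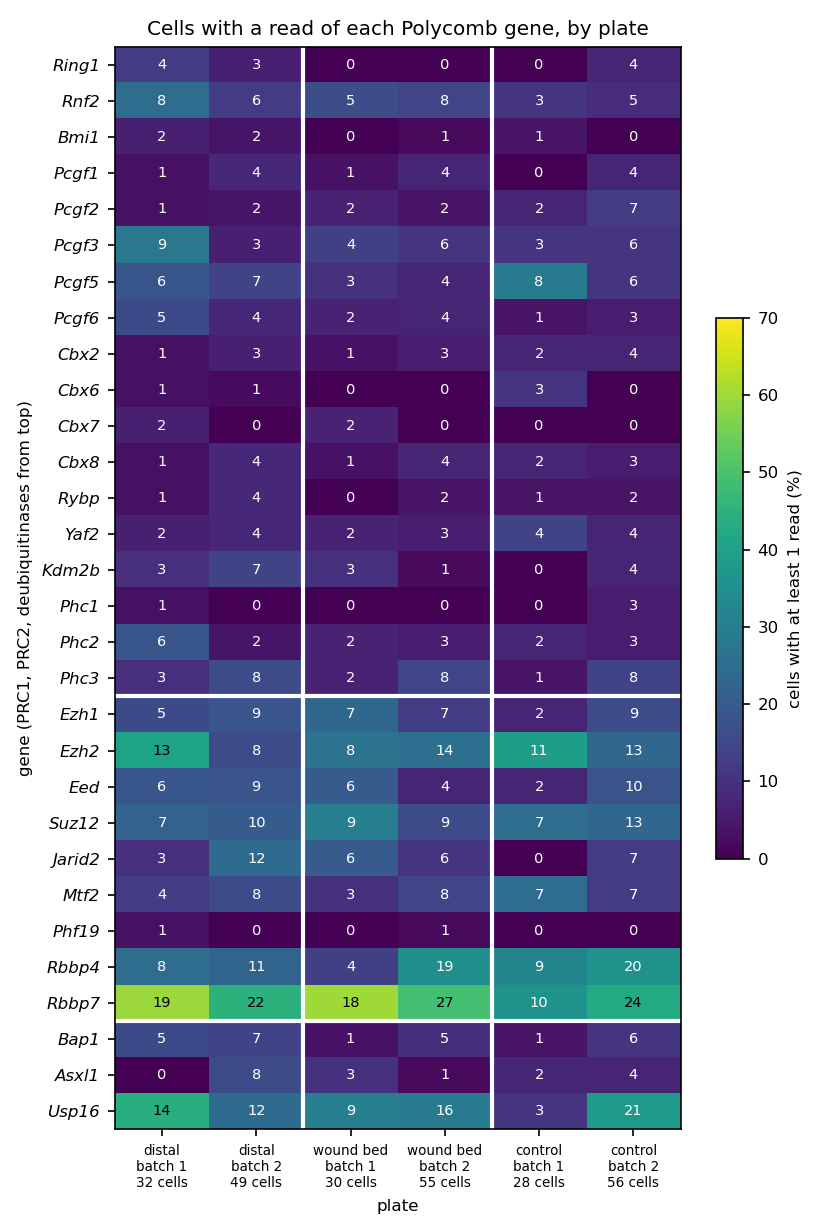
Share of cells with at least 1 read of each Polycomb gene (colour, percent) in each plate (columns), with the number of such cells in each box; rows run from PRC1 through PRC2 to the deubiquitinases. Rbbp7 had the highest count in every plate except control batch 1, where Ezh2 had 11 cells and Rbbp7 10, and the Cbx, Phc and Ring1 rows stayed at 8 cells or fewer.

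The other core PRC2 genes were detected at intermediate rates. Suz12 had reads in 55 cells (22%), Rbbp4 in 71 (28.4%), Eed in 37 (14.8%) and Ezh1, the second catalytic subunit, in 39 (15.6%). Of the accessory genes that steer PRC2 to its sites, Mtf2 was found in 37 cells and Jarid2 in 34, while Phf19 was found in 2. Ezh1 and Ezh2 were both read in 14 cells, out of 39 with Ezh1 and 67 with Ezh2, and Ezh2, Eed and Suz12 were all read in 11. Cells with both Ezh1 and Ezh2 were deeper, with a median of 120359 reads against 41842.5 in cells with neither, and after thinning every cell to 10000 reads 6 of 238 cells had both.

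In PRC1, Rnf2 was the catalytic subunit read most often. It was found in 35 cells (14%, interval 9.95% to 18.9%), while its paralog Ring1 was found in 11 (4.40%, interval 2.22% to 7.74%) with 13 reads in all. After every cell was thinned to 10000 reads, Rnf2 was read in 25 of 238 cells and Ring1 in 3. Among the Pcgf genes, which set the type of PRC1, 3 that belong to variant complexes led in cells with a read: Pcgf5 was found in 34 cells, Pcgf3 in 31 and Pcgf6 in 19. Bmi1 (Pcgf4), the subunit known from stem cell maintenance, was found in 6 cells, and Pcgf1 and Pcgf2 in 14 and 16. These counts are not scaled for length, and Pcgf5 and Pcgf3 have the most exon bases, 12629 and 9544, against 1649 to 5027 for the others. Per kilobase, the median level of Pcgf5 (1.15 CPM) and Pcgf3 (1.07) was near that of Pcgf1 (0.90), Pcgf2 (0.82) and Bmi1 (0.80). Pcgf6 had 3.59.

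The chromodomain subunits, which bind methylated H3 in canonical PRC1, were rare. Cbx8 was found in 15 cells, Cbx2 in 14, Cbx6 in 5 and Cbx7 in 4. Of the polyhomeotic subunits, Phc3 was found in 30 cells, Phc2 in 18 and Phc1 in 4. Of the subunits of variant PRC1, Yaf2 was found in 19 cells, Rybp in 10 and Kdm2b, the protein that brings PRC1 to unmethylated CpG islands, in 18. For genes this rare, 1 cell can carry the sum: 1 cell held 72.9% of all Phc1 reads, 62.5% of those of Pcgf6 and 59.9% of those of Bmi1.

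Among the 3 listed deubiquitinase genes, Usp16 was read most often, in 75 of 250 cells (interval 24.4% to 36.1%). Bap1 followed in 25 and Asxl1, the partner of Bap1, in 18. Usp3, from the list of other Polycomb genes described further on, was read in 93 cells. Bap1 and Asxl1 were read together in 4 cells. At least 1 of the 3 genes was read in 53.1% of distal memory, 36.7% of wound bed and 21.4% of control cells in batch 1, and in 42.9%, 36.4% and 48.2% of them in batch 2. The control plates therefore held both the lowest and the second highest share. The low control share rested on 6 of 28 cells (interval 8.30% to 41%), in the plate with 18 repeat-rich cells, and without those cells it was 2 of 10. The part of the repeat-rich cells in this share was not tested.

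Against control, 11 of the 30 genes had a higher share of cells in distal memory in each batch and 4 a lower one, and in the wound bed 6 were higher and 6 lower. Against the wound bed, 9 were higher in distal memory in each batch and 1 was lower. Among the 12 genes that passed the filter described next, 5 were higher in distal memory than in control in each batch, a share of 41.7%, against 42.8% of all genes that passed it, and 2 were lower, against 9.52%. For wound bed against control 3 of 12 were higher and 2 lower, against 28% and 25.3% of all genes. For distal memory against wound bed 3 of 15 were higher and 1 lower, against 46.9% and 13.1% of all genes. In distal memory, wound bed and control cells, 16, 12 and 12 of the 30 genes reached 10% of cells, and after thinning to 10000 reads 10, 9 and 6. No such count per region over all genes is given here, so no order of regions is read from these counts. Ezh2 was read in 13 of 32 and 8 of 49 distal memory cells (batch 1 and batch 2), in 8 of 30 and 14 of 55 wound bed cells, and in 11 of 28 and 13 of 56 control cells. Over both batches this was 25.9% of distal memory, 25.9% of wound bed and 28.6% of control cells, with intervals that cover each other. Rbbp7 was read in 19 of 32 and 22 of 49 distal memory cells, in 18 of 30 and 27 of 55 wound bed cells, and in 10 of 28 and 24 of 56 control cells. Its share was lowest in control in each batch, and its log2 ratio of (CPM + 1) was 0.50 and 0.68 for distal memory against control and 0.27 and 0.92 for wound bed against control, below the size rule used next. In the distal memory plate of batch 1, 1999 of 2409 Rbbp7 reads came from 4 cells with over 500000 reads, and without such cells Rbbp7 had 160 CPM in distal memory, against 235 CPM in control, which turned that ratio to -0.55. In batch 2, 1 distal memory cell held 55.5% of the Rbbp7 reads, and without the cell with the most reads of the gene in each plate the ratio there was -0.27. In cells with at least 2000 genes the wound bed ratio of batch 1 was -0.13. Ring1 was read in 4 and 3 distal memory cells and 0 and 4 control cells, and in 0 of 85 wound bed cells, for which the exact upper limit is 4.25% and a floor of 3 counts gives 3.53%.

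Regions were compared by the log2 ratio of (CPM + 1) within each batch, which understates the change of low genes. A gene met the size rule if both batches gave a ratio of at least 1 in size with the same sign, among genes with a read in at least 10% of the cells of 1 or both regions in each batch. This filter kept 12 of the 30 genes for distal memory against control, 12 for wound bed against control and 15 for distal memory against wound bed, and the rest were too sparse to be compared. The comparisons share plates: both comparisons with control use the same control cells.

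For distal memory against control, 0 of 12 genes met the size rule. Of all 6356 genes considered, 8.07% met it higher in distal memory and 6.09% met it lower, so a count of 0 of 12 is not far from that background. The 12 genes had median log2 ratios of 1.11 in batch 1 and -0.29 in batch 2, against 0.23 and -0.07 over all genes considered. The batches often disagreed: Eed (2.80 and -1.89), Usp16 (2.02 and -1.78) and Mtf2 (-1.55 and 2.75) reached the size in opposite directions, as did 13.2% of all genes considered. Upper quartile scaling turned the split of all genes that met the rule to 444 higher and 469 lower, against 513 and 387 with TMM, and gave a median mean ratio over all genes of -0.12, against 0.06 with TMM.

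Among the 12 genes that passed the filter, Ezh1 had the largest ratio in this comparison, and it too rested on 1 batch. Its level was 62.5 and 20.6 CPM in distal memory, against 1.98 and 42 CPM in control. Distal memory was thus higher in batch 1 and lower in batch 2, with log2 ratios of 4.41 and -0.99. Bap1 had 12.7 and 22.3 CPM in distal memory, against 1.13 and 13.2 CPM in control. Both batches were higher in distal memory, with log2 ratios of 2.68 and 0.72, and the second was below the size rule. In batch 1 Bap1 passed the filter only through distal memory, where it was high (5 of 32 cells, against 1 of 28 in control). The control plate of batch 1 held 4 reads, all in 1 cell, and 1 distal memory cell held 58 of 96 reads. In batch 2, 1 cell held 43 of 79 reads in distal memory and 1 cell held 42 of 66 in control. These ratios are thus no support for a difference.

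For wound bed against control, 1 of 12 genes met the size rule, Jarid2, and it was higher in the wound bed. Of all 5776 genes considered, 7.83% met the rule higher in the wound bed and 8.24% lower, so 1 of 12 is at the background. The median log2 ratios of the 12 genes were 0.17 and 0.66, against 0.03 and -0.03 over all genes considered. Rnf2 (-2.26 and 1.43), Ezh1 (3.02 and -2.19), Ezh2 (-2.21 and 1.60) and Eed (2.81 and -3.12) reached the size in opposite directions, 4 of 12 genes, against 11.7% of all genes considered.

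Jarid2, an accessory subunit that helps PRC2 to bind its targets (13:44729474-44921643, plus strand), was read in 6 of 30 and 6 of 55 wound bed cells and in 0 of 28 and 7 of 56 control cells. Its level was 19.4 and 51.6 CPM in the wound bed, against 0 and 22 CPM in control, from 35 and 171 reads against 0 and 110. The log2 ratios of (CPM + 1) were 4.35 and 1.19. With the floor of 3 counts in place of 0 reads in the control plate of batch 1, the ratio there was 22.8-fold. This is no lower limit, because reads of 1 cell are not independent and 1 wound bed cell held 19 of the 35 reads. In batch 2 the wound bed was 2.35-fold higher, with a counting interval of 1.84 to 3.01. The exact upper limit of the share in the control plate of batch 1 is 12.3%, and a floor of 3 counts gives 10.7%.

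In batch 2 the share of cells with Jarid2 went against the level, with 10.9% of wound bed and 12.5% of control cells, so no order is read from that batch. There, 1 wound bed cell held 65.5% of the plate's Jarid2 reads. Without the cell with the most Jarid2 reads in each plate, Jarid2 no longer met the rule. Distal memory had 34.5 and 47.2 CPM of Jarid2, in 3 of 32 and 12 of 49 cells, and the 3 cells of batch 1 kept the gene below the 10% filter against control. All 5 other plates had Jarid2 reads, and the control plate of batch 1, which holds the 18 repeat-rich cells, had none. The upper limit of its share, given above, still lies over the wound bed share of batch 2 (10.9%). The part of the repeat-rich cells in this was not tested. Leaving out repeat-rich cells left 10 cells in that plate, again with 0 reads. In batch 1 Jarid2 passed the filter only through the wound bed, where it was high.

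**Figure D2:**
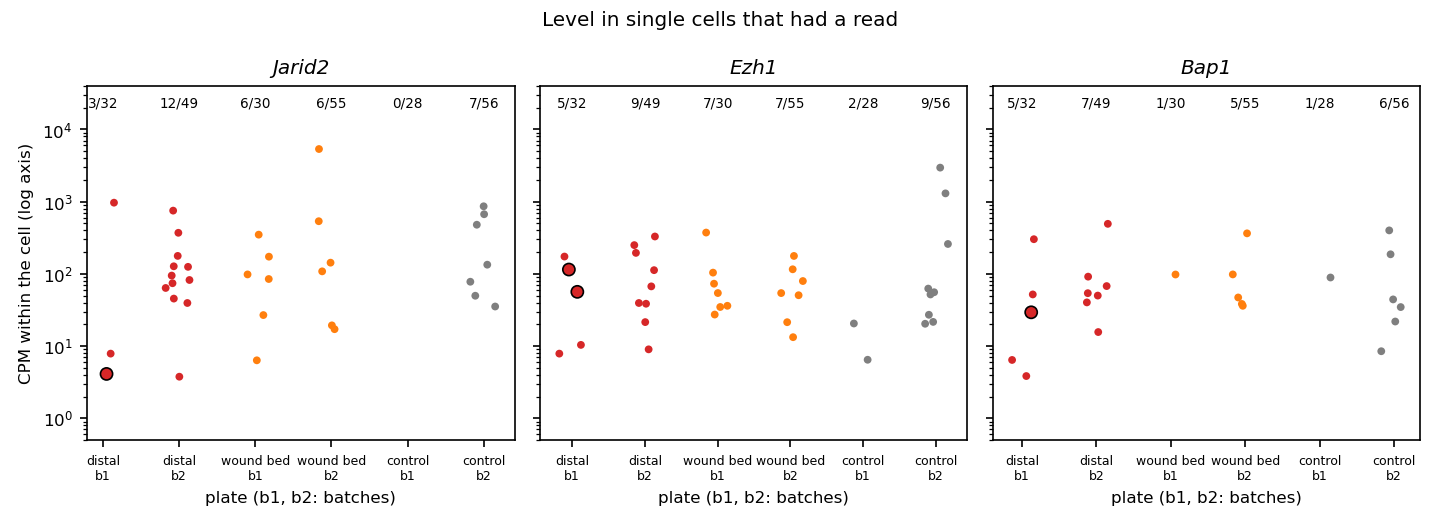
CPM of Jarid2, Ezh1 and Bap1 within each cell that had a read (points, log axis), by plate (b1 and b2 are batches), with the number of cells with a read out of all cells above; larger points with an outline are cells over 500000 reads. Jarid2 had no cell in control batch 1, 1 wound bed cell of batch 2 stood at 5360 CPM, and 2 of the 5 Ezh1 cells of distal memory batch 1 were deep cells.

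For distal memory against wound bed, 2 of 15 genes met the size rule, Ezh1 and Bap1, both higher in distal memory. Of all 6285 genes considered, 9.59% met the rule higher in distal memory and 5.28% lower, and 2 of 15 is near that background. The median log2 ratios of the 15 genes were 1.15 and -0.13, against 0.25 and -0.02 over all genes considered. Rnf2 (2.31 and -2.44), Usp16 (1.58 and -1.50) and Asxl1 (-3.45 and 3.54) reached the size in opposite directions, as did 14.3% of all genes considered. Upper quartile scaling turned the split over all genes to 410 higher and 536 lower, against 603 and 332 with TMM, gave a median mean ratio over all genes of -0.17, against 0.11 with TMM, and left 0 of 15 Polycomb genes past the rule. Scaling by total counts split all genes into 479 higher and 484 lower.

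Ezh1 (11:101191115-101226463, minus strand) had 62.5 and 20.6 CPM in distal memory, against 23.2 and 8.45 CPM in the wound bed. The log2 ratios were 1.39 and 1.19. It was read in 5 of 32 and 9 of 49 distal memory cells and in 7 of 30 and 7 of 55 wound bed cells, so in batch 1 the share went against the level and gives no order. Of the 473 Ezh1 reads in the distal memory plate of batch 1, 454 came from 2 cells with over 500000 reads. Without cells over 500000 reads the log2 ratio, as the mean of both batches, was -0.19, and with every cell thinned to 10000 reads it was -0.38, so the direction turned.

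Bap1, the catalytic subunit of the deubiquitinase complex (14:31251450-31259944, plus strand), had 12.7 and 22.3 CPM in distal memory, against 0.553 and 9.66 CPM in the wound bed. It was read in 5 of 32 and 7 of 49 distal memory cells and in 1 of 30 and 5 of 55 wound bed cells, so it passed the filter only through distal memory, the region in which it was high, and its call is no support for a difference. The log2 ratios were 3.14 and 1.13. The wound bed plate of batch 1 held 1 read, and the 22.9-fold ratio there has a counting interval of 4.02 to 916. In batch 2 the ratio was 2.31-fold, with an interval of 1.52 to 3.6. After thinning, Bap1 was read in 1 of 32 and 3 of 45 distal memory cells and in 1 of 29 and 4 of 49 wound bed cells, so at equal depth the share was not higher in distal memory.

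**Figure D3:**
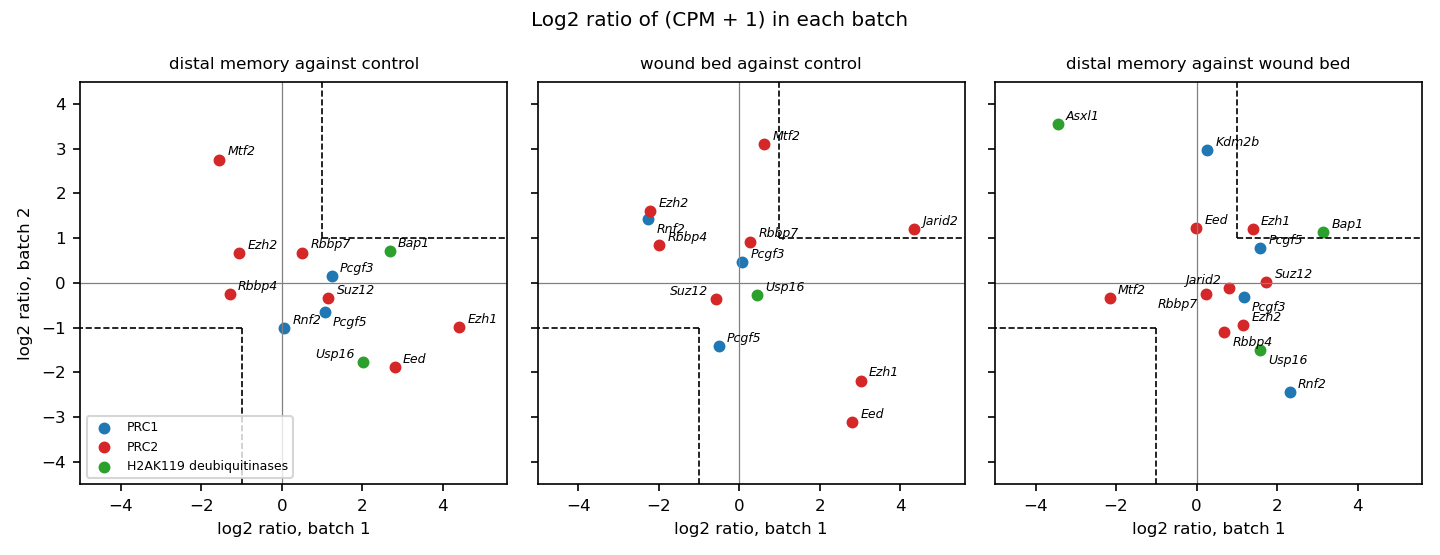
Log2 ratio of (CPM + 1) in batch 1 (x axis) and batch 2 (y axis) for the Polycomb genes that passed the detection filter, one panel per comparison, coloured by class; dashed corners enclose the genes that met the size rule. Jarid2 lies in a corner for wound bed against control, Ezh1 and Bap1 for distal memory against wound bed, and no gene for distal memory against control.

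Ezh2 and Rbbp7 were read more often in cells with cycling markers. This description was added after the values had been seen and uses 9 markers (Mki67, Top2a, Ccnb1, Cdk1, Birc5, Ccna2, Pcna, Mcm5 and Mcm6), which are not Polycomb genes. With every cell thinned to 10000 reads, Ezh2 was read in 42.2% of 45 cells with 2 or more of these markers (interval 27.7% to 57.8%) and in 13.3% of 120 cells with none (7.82% to 20.7%). Rbbp7 was read in 73.3% of the cells with 2 or more markers (58.1% to 85.4%) and in 36 of 120 cells with none (22% to 39%). The direction was the same in each batch. Ezh2 was in 47.1% of cells with markers and 21.4% without in batch 1, and in 39.3% and 8.97% in batch 2. Rbbp7 was in 70.6% and 33.3% in batch 1, and in 75% and 28.2% in batch 2. Within batch 1 the intervals of both genes meet. They were 23% to 72.2% and 10.3% to 36.8% for Ezh2, and 44% to 89.7% and 19.6% to 49.5% for Rbbp7. Within batch 2 they do not meet (21.5% to 59.4% and 3.68% to 17.6% for Ezh2, 55.1% to 89.3% and 18.6% to 39.5% for Rbbp7). How many of all genes have intervals that do not meet was not counted, pooled or within a batch.

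Other PRC2 genes differed less between these cells at equal depth. Rbbp4 was read in 31.1% of cells with markers and 17.5% without, Mtf2 in 13.3% and 5.83%, Suz12 in 15.6% and 12.5%, and Eed in 6 of 45 and 12 of 120 cells. Ezh1 was read in 8.89% of cells with markers and 12.5% without, and Usp16 in 17.8% and 24.2%. Their intervals cover each other. Of the 11 Polycomb genes read in at least 10% of either kind of cell, 8 had the higher share in cells with markers, as did 70.1% of all 4604 such genes. Cells with markers had a median of 1367 genes at 10000 reads, and cells with none 1156.5. A difference as large as that of Ezh2 (28.9 percentage points) was found for 2.17% of those genes and one as large as that of Rbbp7 (43.3 points) for 0.261%. At equal depth, cells with 2 or more markers made up 10.9% (control, batch 2) to 26.5% (wound bed, batch 2) of a plate.

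**Figure D4:**
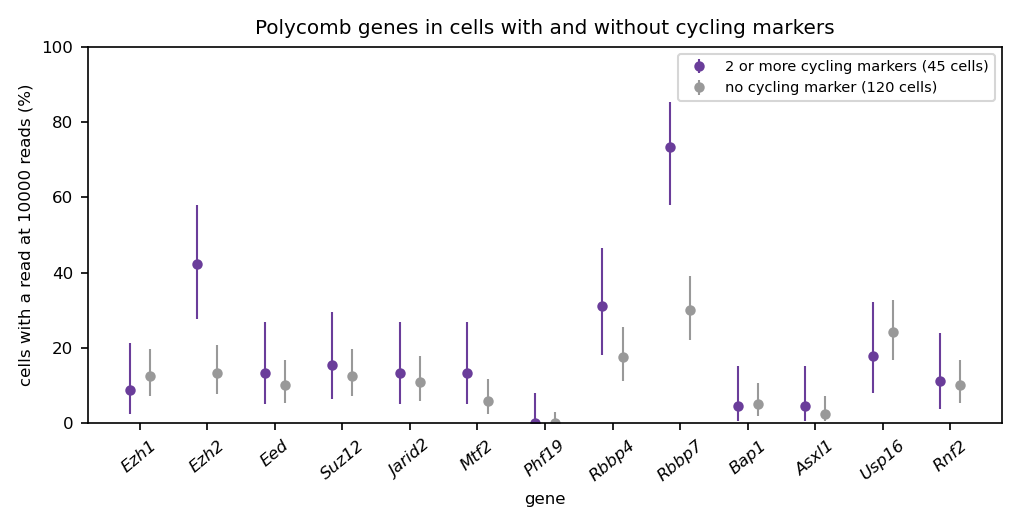
Share of cells with a read (y axis, percent, each cell thinned to 10000 reads) for the PRC2 and deubiquitinase genes and Rnf2 in 45 cells with 2 or more cycling markers and 120 cells with none; lines are exact 95% intervals over cells. With both batches pooled, Ezh2 (42.2% and 13.3%) and Rbbp7 (33 of 45 and 36 of 120 cells) are the genes whose intervals do not meet. In batch 1 alone the intervals of both genes meet. How many of all genes have intervals that do not meet was not counted.

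A list of 42 other Polycomb genes, chosen for their roles, had 40 rows in the table. The filter kept 22 of them for each comparison with control and 25 for distal memory against wound bed. Skp1a, a ubiquitin ligase subunit that is also found in variant PRC1, was the 1 of 22 genes past the size rule in distal memory against control (8.07% of all genes considered met it higher and 6.09% lower). It had 291 and 181 CPM in distal memory, 1124 and 1111 CPM in the wound bed, and 615 and 914 CPM in control. In level, distal memory was the lowest region in each batch, with log2 ratios of -1.08 and -2.33 against control and -1.94 and -2.61 against the wound bed. Skp1a was read in 81.3% and 89.8% of distal memory, 96.7% and 90.9% of wound bed and 71.4% and 87.5% of control cells, so against control the share went the other way and no order is read there. In the control plate of batch 1, 1 cell held 60.9% of the Skp1a reads. Without the cell with the most Skp1a reads in each plate, it had 231 CPM in distal memory, against 240 CPM in control, in batch 1, and no longer met the rule against control. It also missed that rule with every cell weighted equally and after thinning, where the batch 1 ratios were 0.35 and 0.12, and without cells over 500000 reads or repeat-rich cells, where they were -0.94 and -0.65. Against the wound bed it met the rule in the same direction in all 8 other settings tried for it.

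For wound bed against control, 0 of the 22 genes met the rule, beside 7.83% of all genes considered higher and 8.24% lower. For distal memory against wound bed, 3 of 25 did, near the background of 9.59% higher and 5.28% lower. Besides Skp1a these were Kdm1b, a histone H3 demethylase, with 4.76 and 9.61 CPM in distal memory, against 114 and 24.2 CPM in the wound bed, where 1 cell held 85% of the reads of batch 1. Mysm1, a further H2A deubiquitinase, had 182 and 169 CPM in distal memory, against 54.7 and 39.6 CPM in the wound bed. In each distal memory plate 1 cell held more than 70% of the Mysm1 reads (71.8% and 72.1%). In batch 2 Mysm1 passed the filter only through distal memory, where it was high (20.4% of cells, against 7.27% in the wound bed). In batch 1 Kdm1b passed it only through the wound bed, where it was high (16.7%, against 6.25% in distal memory). Without the cell with the most reads of the gene in each plate neither Kdm1b nor Mysm1 met the rule, nor did they with every cell weighted equally. Without cells over 500000 reads the batch 1 ratio of Mysm1 turned to -1.06, against 1.72 with them.

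Genes known as Polycomb targets in epidermis were mostly at or near 0. Of 12 listed, 9 had a row, and 6 of these were read in at most 3 cells. Many genes were this rare: 5495 of 27003 symbols had no read, and the median share over genes with a read was 2.4% of cells. The low counts are thus not read as particular to these targets. Cdkn2a was read in 1 cell, Sox2 in 3, Krt20 in 2, Krt8 in 1, Pax6 in 3 and Isl1 in 0 of the 250, while Hoxa9 was read in 53 and Hoxc13 in 24. Cdkn2b, the neighbour of Cdkn2a that encodes a cell cycle inhibitor, met the size rule for wound bed against control as 1 of 3 targets considered, beside 7.83% of all genes considered higher and 8.24% lower. It passed the filter only through the wound bed, the region in which it was high. It was read in 7 of 30 and 13 of 55 wound bed cells and in 1 of 28 and 2 of 56 control cells. Its level was 13.8 and 31.7 CPM in the wound bed, against 1.13 and 1.80 CPM in control, from 25 and 105 reads against 4 and 9, with log2 ratios of 2.80 and 3.55. Distal memory had 37.5 and 4.52 CPM of Cdkn2b, which lay above control in each batch and above the wound bed in batch 1 only.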

How the data were processed

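Single cells were sequenced by Smart-Seq2, per the labels. The authors deposited 1 table of whole-number read counts per gene and cell, and all 250 columns matched a label. Per the submitters' processing notes, Salmon 0.13.1, Seurat, R 4.0.3 and the build mm10 (GRCm38) were used, with no role or order given; how counts were summed and rounded is not given in the sources used here.

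Counts were summed per plate and scaled with TMM (edgeR 4.0.16, R 4.3.3), and ratios used a pseudocount of 1 CPM. Shares, intervals and thinning (10000 reads, which left out 12 cells) used Python 3.11.15 and scipy 1.17.1. A region is 1 sample, so regions were not tested. Main values left out no cell; doublets were not called, free RNA was not subtracted and clusters were not used. Exon lengths and loci came from GENCODE M21, and start windows from RefSeq (GRCm38.p6), which had no entry for Pcgf1, Cbx2, Rybp and Yaf2.

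The 30 genes, the gene lists and the size rule were chosen with earlier results of these data known; all 30 genes are named, and of the other lists those that met the rule. Targets at or near 0 and Lrig1 were named after their values were seen, and the comparison by cycling markers was added then. Settings for Rbbp7 and the named genes outside the 30 were added then too. The 12 repeat-like genes were also chosen after seeing the data. Reads here carry no molecular identifier, so they are not independent molecules, and cells of 1 region may share an animal.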

Additional observations from a re-analysis of the deposited data

How the results depend on the processing

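Counts of Polycomb genes that met the size rule depended on the processing. For distal memory against control the count of 0 became 1 with every cell weighted equally (Ezh2, lower), 2 with no detection filter (Jarid2 higher, Cbx2 lower), 2 in cells with at least 2000 genes (Phc3 higher, Cbx2 lower) and 1 without repeat-rich cells (Jarid2). For wound bed against control the count of 1 became 2 with no detection filter, 0 at a filter of 25% of cells, 2 after thinning to 10000 reads (Rnf2 and Jarid2) and 4 without repeat-rich cells (Rnf2, Ezh2 and Jarid2 higher, Pcgf5 lower). For distal memory against wound bed the count of 2 became 1 with scaling by total counts and 1 without cells over 500000 reads (Bap1 each time), and 0 with upper quartile scaling, equal weights, a pseudocount of 5 CPM, a filter of 25% or thinning. In the settings named so far, 9.32% to 18.6% of all genes considered met the rule. The 4 genes found without repeat-rich cells were among 13 considered, beside 18.6% of all genes. A single batch gave 12 of 17 and 6 of 17, 10 of 16 and 7 of 15, and 11 of 18 and 8 of 16 genes considered (batch 1 and batch 2, in the order of the comparisons above). Over all genes it gave 62.8% and 44%, 59.4% and 46.5%, and 55.3% and 54.8%, so these counts are near that background. Polycomb genes with reads in at least 10% of cells fell to 10 in distal memory and 6 in control after thinning, against 16 and 12. Without the same count over all genes, no order of regions is read from this. Jarid2 kept its direction for wound bed against control in every setting run, with a mean log2 ratio of 1.19 to 4.35, and missed the rule in cells with at least 2000 genes, without the top cell of each plate and at the filter of 25%. Ezh1 for distal memory against wound bed turned to -0.194 without cells over 500000 reads and to -0.3793 after thinning. Of 546 values of single genes over 14 settings, 441 were counted as the same. Another 48 newly met the rule, 16 no longer met it, 39 moved and 2 turned. For genes past the rule in the main setting, the same means still past it in the same direction. For the other genes, it means still short of the rule, with a mean ratio close to the main one. Close means no further off than the standard deviation of the 2 batch ratios. By this rule a single batch short of the size always counts as close, and the allowed distance is wide where the batches disagree. A single batch also needs only 1 ratio to meet the rule. The tally is therefore no measure of how stable the results are. The sign of those genes was not checked, so turns were counted only among genes past the rule. The cause was not tested beyond what each setting leaves out. Depth limits these results: most plate sums rest on few cells, and genes under the 10% filter could not be compared.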
